A study of Homo sapiens with 12 samples.

Results

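The genes described here encode the core of the machinery that chooses splice sites: the serine- and arginine-rich (SR) proteins, the heterogeneous nuclear ribonucleoproteins (hnRNPs), the SF3A and SF3B subunits of the U2 particle, and the CLK kinases that phosphorylate SR proteins. Members were all genes whose platform symbol was SRSF plus a number, HNRNP plus letters or digits, SF3A or SF3B plus a number, or CLK1 to CLK4, and that had a probe set naming that gene alone. This gave 47 of the 18132 genes measured, with 12 SRSF genes, 22 HNRNP genes, 3 SF3A genes, 6 SF3B genes and 4 CLK genes. The cells were A549, an established human lung adenocarcinoma line, grown as monolayers on uncoated plastic. Each of 4 groups had 3 Affymetrix PrimeView arrays: untreated control, heat shock for 2 h, wounding for 4 h, and heat shock followed by wounding. All groups were the same line with no genetic change, so a difference between groups is one of treatment and handling within 1 tumour line. Temperature, the collection time of the heat shock group, and the cultures behind each array are not stated in the labels. Here p-values measure the spread between these samples, which may be technical.

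SR proteins bind exonic enhancers and recruit the spliceosome, while many hnRNPs bind silencers and oppose them, so their balance shapes alternative splicing. SF3A and SF3B hold the U2 particle on the branch point. CLK kinases phosphorylate the arginine-serine domain of SR proteins and thereby set where these proteins sit in the nucleus and how active they are. In heat-shocked cells SRSF10 is known to lose phosphate and repress splicing, CLK1 is known to restore SR protein phosphorylation during recovery, and SRSF1, SRSF7 and SRSF9 are known to gather with SAFB in nuclear stress bodies. Transcripts of several SRSF, HNRNP and CLK genes carry exons or retained introns through which the level of productive mRNA is controlled. The arrays read RNA only, and phosphorylation and protein levels were not measured.

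A level is a log2 value made by the authors with RMA (robust multi-array average), and a difference is one of such values, so 1 unit is a doubling. In bulk samples fewer cells and less RNA per cell cannot be told apart. Each gene was read through its probe set of highest mean, and a gene was called changed at a limma adjusted p under 0.05 over all 18132 genes. The treatments left their usual marks: the heat shock genes HSPA6, DNAJB1, BAG3 and HSPB1 were higher after heat shock by 1.76 to 5.79 on the log2 scale, and the immediate early genes EGR1 and FOS were higher after wounding by 2.99 and 2.04, all called by limma (EGR1 was also higher after heat shock, by 1.03). The 6 epithelial markers had a median of 9.87 in control, from 5.70 for CLDN4 to 13.83 for KRT18. After both treatments limma called CLDN4 higher (1.54) and CDH1 lower (-0.26), and the mean of the list ran from 10.39 to 10.59, against 10.23 to 10.31 on control arrays. The surfactant genes that define alveolar type II cells stood at 2.26 to 6.08, and the 7 leukocyte, 5 endothelial and 6 fibroblast markers had medians of 4.13, 3.85 and 3.70. The mean level of the endothelial markers ran from 3.82 to 3.87 on control arrays and from 3.69 to 4.15 after both treatments, and that of the leukocyte markers from 4.11 to 4.25 and from 4.15 to 4.30. Of the markers of these 4 other cell types, limma called COL3A1 lower after heat shock (-0.35) and none after both treatments, and their part in the results below was not tested. Arrays of a group correlated at 0.994 to 0.998 over all genes. Replicate 2 of heat shock and wounding stood apart, with an interquartile range of 3.98 against 4.13 to 4.24 on the other arrays, and the counts of called members that it moved are also given without it. HNRNPA1L2, HNRNPCL1 and HNRNPCL2 had mean levels below 4.76, the upper quartile of the leukocyte and endothelial markers in control, and no detection p was at hand, so whether they were expressed is not known. SRSF12, CLK4 and SRSF8, with means of 5.81, 6.38 and 6.45, lay above that quartile. They lay below CD68 (6.84 in control), the highest of these markers, so their detection is less certain than that of brighter members.

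Heat shock alone moved 11 of the 47 genes. CLK3, SRSF11, SF3A1, HNRNPH3 and HNRNPLL were higher, and SRSF2, HNRNPDL, SRSF12, CLK4, SRSF6 and HNRNPAB were lower. The 11 calls are 23.4% of the members, beside 12.9% of all genes tested. The 5 higher calls (10.6%) stand beside 4.93% of all genes, and the 6 lower calls (12.8%) beside 7.92%. Levels of control and heat shock arrays did not overlap for 20 of 47 members (42.6%, against 31.3% of all genes). The median difference of the members was -0.025, beside -0.034 for all genes, and the called members lay on both sides of 0. The count was 7 without control replicate 1 (14.9%, beside 8% of all genes). It was 6 with the mean of a gene's probe sets (12.8%, beside 11.6%, near the background). It was 4 with replicates 1 and 2, which the labels describe as S2a and S2b, averaged to 1 sample (8.51%, beside 5.07%). That averaging ended the calls of SRSF6, SRSF11, SRSF12, HNRNPAB, HNRNPH3, HNRNPLL and SF3A1 (limma adjusted p from 0.0597 to 0.244).

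**Figure D1:**
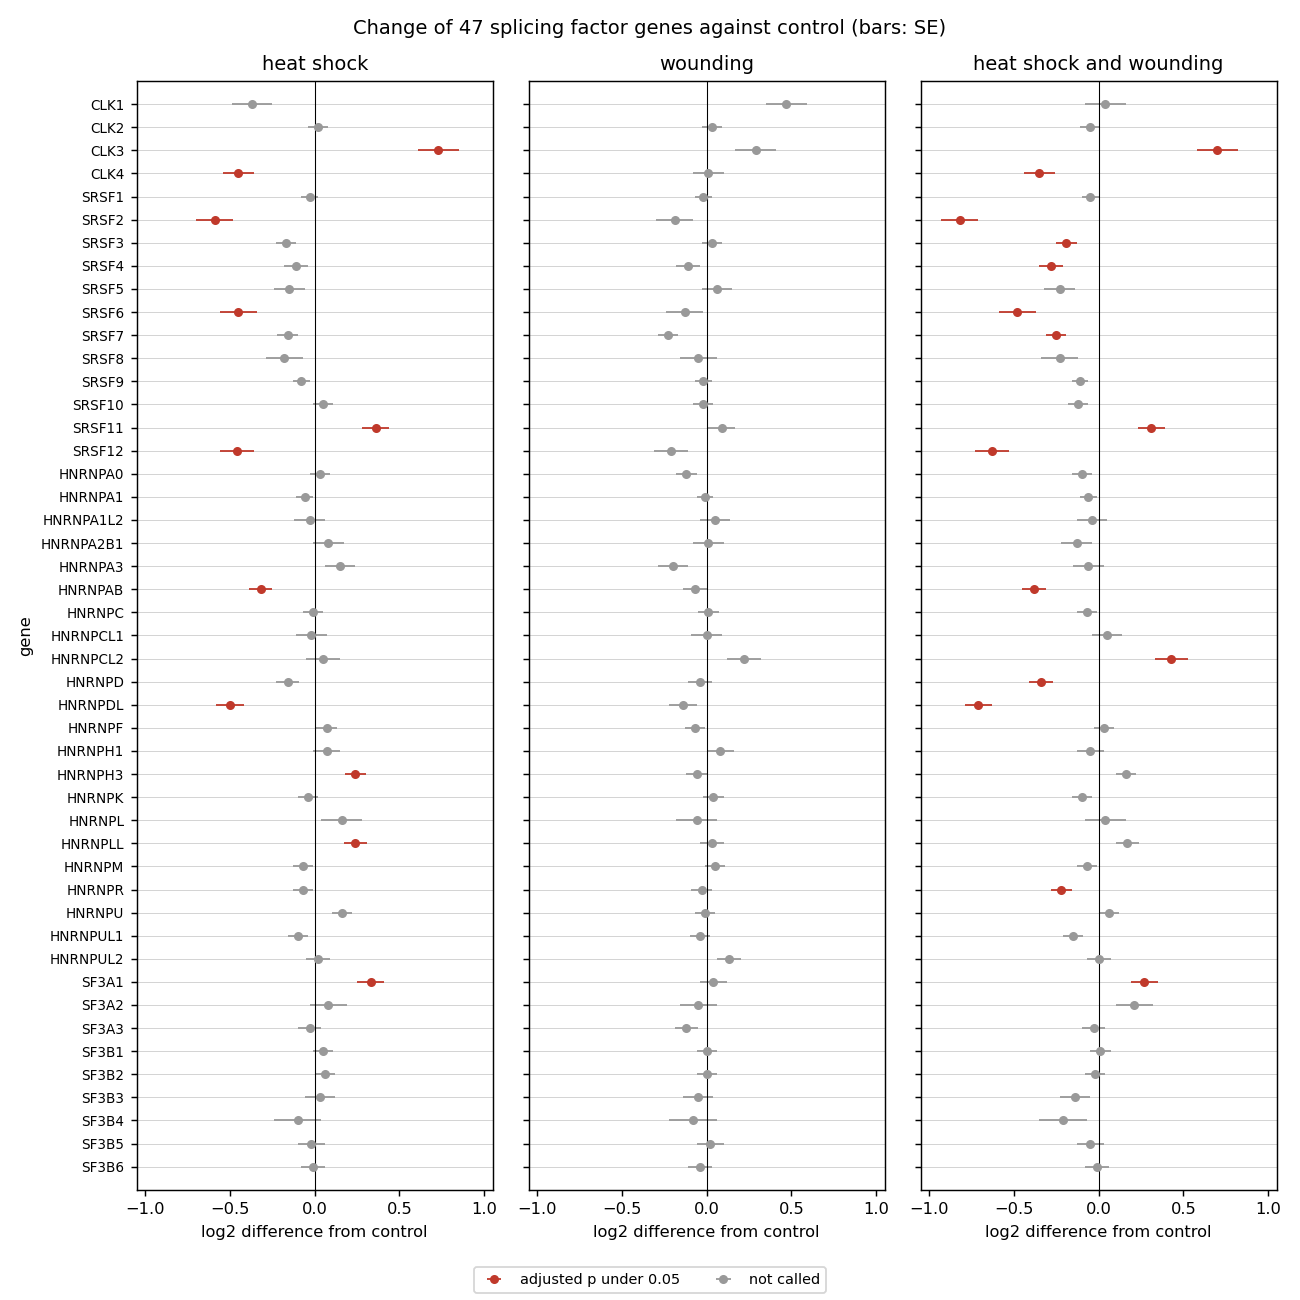
Difference from control (log2, points, with SE as bars, n = 3 arrays a group) of all 47 genes after heat shock, wounding, and both, with genes called by limma in red. Called genes lie on both sides of 0 after heat shock and after both treatments, from -0.82 for SRSF2 to 0.73 for CLK3, and none is called after wounding.

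The 4 CLK genes did not move together. CLK3, a kinase of SR proteins, stood at 7.35, 7.48 and 7.24 on the control arrays and at 8.19, 8.24 and 7.83 after heat shock. All 3 heat-shocked arrays were above all control arrays, a rise of 0.73 ± 0.12 (SE) or 1.66-fold (limma adjusted p = 0.00186). CLK4 went the other way, from 6.50, 6.75 and 6.49 to 6.28, 6.12 and 5.98. These values did not overlap either, with a difference of -0.45 ± 0.09 (adjusted p = 0.00758, limma). CLK1 stood at 7.78, 7.95 and 7.59 in control and at 7.36, 7.65 and 7.20 after heat shock, so the groups overlapped, and its difference of -0.37 ± 0.12 was not called (limma adjusted p = 0.0698). It passed the threshold in 7 of 22 alternatives (adjusted p from 0.0243 to 0.0474), among them array weights (-0.36, 0.0276), the robust variance prior (-0.37, 0.0243), and the fits without replicate 2 of heat shock (-0.50, 0.0247) or replicate 3 of control (-0.46, 0.0474). CLK2 showed no difference beyond its spread, with 9.11, 9.02 and 9.02 in control, 9.08, 9.02 and 9.10 after heat shock, and a 95% interval of the difference from -0.12 to 0.16. For CLK3 a dimmer probe set rose by 0.31 and the dimmest, at a mean of 3.47, was not called at -0.21. Of the 9 probe sets of CLK4 only 1 was called lower and 0 higher, and their signs differed. Averaging all probe sets of the gene gave 0.28 for CLK3 (adjusted p = 0.0739) and -0.15 for CLK4 (0.221), so both calls were lost under that rule.

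**Figure D2:**
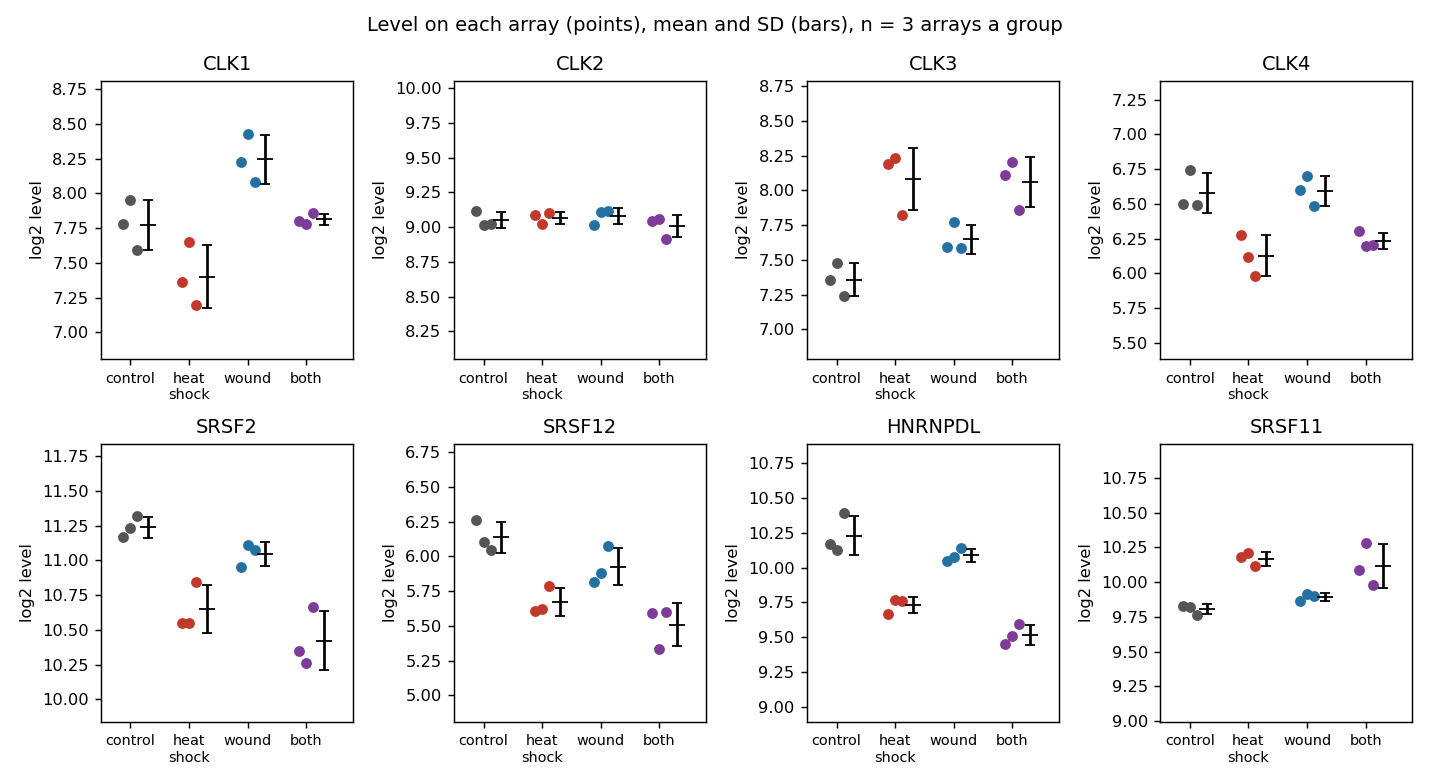
Log2 level on each of the 12 arrays (points) with mean and SD (bars, n = 3) for the CLK kinases and for SRSF2, SRSF12, HNRNPDL and SRSF11, each panel spanning 2 log2 units. CLK3 is high in both heat-shocked groups, CLK1 is lowest after heat shock (7.20 to 7.65) and highest after wounding (8.08 to 8.43), and SRSF2, SRSF12 and HNRNPDL are lowest after both treatments.

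Of the 12 SR protein genes, 3 fell (25%, beside 7.92% of all genes) and 1 rose (8.33%, beside 4.93%) after heat shock. SRSF2 (also known as SC35), an activator of many exons whose protein marks nuclear speckles, stood at 11.17, 11.24 and 11.32 in control and at 10.55, 10.55 and 10.85 after heat shock. Every heat-shocked array was below every control array, and the difference was -0.59 ± 0.11, or 0.664 of the control level (limma adjusted p = 0.00399). All 3 of its probe sets fell, by 0.41 to 0.59, and the call held in all 22 alternative analyses. SRSF12, a splicing repressor related to SRSF10, went from 6.26, 6.10 and 6.05 to 5.61, 5.62 and 5.79, again without overlap (difference -0.46 ± 0.10, limma adjusted p = 0.00794, and 0.0508 with the mean of its probe sets). SRSF6, an enhancer-binding SR protein, went from 10.64, 10.64 and 10.73 to 10.14, 10.07 and 10.46. Its difference of -0.45 ± 0.11 passed narrowly (limma adjusted p = 0.0198) and lost its call without any 1 of 5 arrays: control replicates 1, 2 and 3 (adjusted p = 0.0519, 0.0533 and 0.068) and heat shock replicates 1 and 2 (0.0809 and 0.0813).

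SRSF11, an SR-related protein of the U2 auxiliary factor complex, was the SR gene that rose. Its levels were 9.83, 9.82 and 9.76 in control and 10.18, 10.21 and 10.11 after heat shock, a rise of 0.36 ± 0.08 (1.29-fold, limma adjusted p = 0.00784). Of its 6 probe sets, 5 were called higher, by 0.28 to 0.46. The other 8 SR genes were not called, with differences from -0.18 for SRSF8 to 0.05 for SRSF10. These 8 include SRSF1, SRSF7 and SRSF9, the SR proteins known from nuclear stress bodies, at -0.03, -0.16 and -0.08.

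Among the 22 HNRNP genes 2 fell (9.09%, beside 7.92% of all genes) and 2 rose (9.09%, beside 4.93%). HNRNPDL, a relative of the mRNA decay factor AUF1, stood at 10.17, 10.13 and 10.39 in control and at 9.66, 9.77 and 9.76 after heat shock (difference -0.50 ± 0.08, or 0.707 of control, limma adjusted p = 0.00125). No heat-shocked array reached a control array, but the mean of its probe sets, which went separate ways, gave -0.14 (adjusted p = 0.28). HNRNPAB, which binds AU-rich RNA and edited transcripts, went from 12.12, 12.08 and 12.16 to 11.81, 11.69 and 11.90, and all 3 of its probe sets fell by 0.28 to 0.33 (main difference -0.32 ± 0.07, limma adjusted p = 0.00838). The other called genes rose. HNRNPH3, of the hnRNP H family that binds G-rich RNA, went from 10.18, 10.22 and 10.24 to 10.48, 10.46 and 10.41 (0.24 ± 0.06, limma adjusted p = 0.0292). HNRNPLL, a regulator of CD45 exon choice in lymphocytes, went from 8.91, 8.83 and 8.91 to 9.18, 9.14 and 9.05 (0.24 ± 0.07, limma adjusted p = 0.0374). In the main probe sets both rises were small and lost their call when single arrays were left out. HNRNPH3 lost it without control replicate 1, 2 or 3 or heat shock replicate 1 or 2 (adjusted p from 0.0573 to 0.108) and with the mean of its probe sets (0.115), and HNRNPLL in 8 of 12 such fits (0.0518 to 0.136). The call of HNRNPLL held with the mean of its probe sets. For HNRNPLL 3 dimmer probe sets were called higher, by 0.56, 0.61 and 0.67, and that with a rise of 0.61 read 6.66, 6.71 and 6.61 in control against 7.38, 7.33 and 7.10 after heat shock. Its probe sets were not called unequal by the limma diffSplice test described below (adjusted p = 0.86). The other 18 HNRNP genes ranged from -0.16 for HNRNPD to 0.16 for HNRNPL, and the abundant export and silencing factors HNRNPA1, HNRNPA2B1, HNRNPC and HNRNPK stood at -0.06, 0.08, -0.01 and -0.04.

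Of the 9 SF3 genes only SF3A1 was called, beside 12.9% of all genes. SF3A1, the subunit that joins SF3A to the U2 particle, went from 9.22, 9.36 and 9.23 to 9.50, 9.54 and 9.78, a rise of 0.33 ± 0.08 (1.26-fold, limma adjusted p = 0.0128). The groups did not overlap, but the call was lost without control replicate 1 (0.31, adjusted p = 0.0575) and with the mean of its probe sets (0.17, 0.139), and the dimmest of its 3 probe sets stood at -0.12. SF3B1, the branch point subunit, read 10.51, 10.54 and 10.55 in control against 10.63, 10.58 and 10.53, and the 6 SF3B genes lay between -0.10 and 0.06.

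Heat shock factors bind inverted repeats of the letters GAA, so the promoters of the members were read for them, from 250 bases before to 50 bases after a transcript start in RefSeq (GRCh38.p14). A promoter was found for 44 of the 47 members. For 40 of them that start was the outer end of the gene, and for 4 (SF3B1, HNRNPDL, HNRNPF and SRSF11) it lay inside the gene, for SRSF11 by 15684 bases. The pair GAANNTTC or TTCNNGAA, each its own reverse complement and counted with overlaps, occurred in 3 of them (6.82%), against 13.7% of all 27305 promoters read the same way. The 3 windows are shown because they are the member promoters that held the pair, with the matches in capitals.
HNRNPA2B1, chr7:26200747-26200809, minus strand: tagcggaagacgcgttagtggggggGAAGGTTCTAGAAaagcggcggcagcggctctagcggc
HNRNPC, chr14:21269457-21269514, minus strand: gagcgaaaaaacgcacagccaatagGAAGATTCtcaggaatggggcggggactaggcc
SRSF8, chr11:95066666-95066723, plus strand: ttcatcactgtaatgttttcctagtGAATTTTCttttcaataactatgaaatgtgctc
In HNRNPA2B1 matches begin at positions -38 and -33 from the start and overlap into a triple repeat (GAANNTTCNNGAA or TTCNNGAANNTTC), which 1 member (2.27%) and 0.487% of all promoters held. The match in HNRNPC begins at -47 and that in SRSF8 at -186. By the probe set of highest mean none of these 3 genes was called after heat shock. HNRNPA2B1 read 12.15, 12.20 and 12.27 in control and 12.20, 12.36 and 12.31 after heat shock, HNRNPC differed by -0.01 and SRSF8 by -0.18. Of the 6 probe sets of HNRNPC, however, a dimmer 1 was called higher after heat shock, as described below. CLK3 and HNRNPDL held no such pair in the window read, and HNRNPA1, SF3B3 and SRSF2 were the members without a promoter. A match of letters is a description and binding was not measured. The members' promoters were richer in G and C (median 63.5%, against 58.3%).

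Wounding alone called none of the 47 genes, beside 3.57% of all genes tested (2.27% higher and 1.31% lower). By limma 5 members (10.6%, beside 13.2% of all genes) had an unadjusted p under 0.05 (CLK1, CLK3, SRSF7, HNRNPA3 and HNRNPCL2), and the smallest adjusted p was 0.062. Levels did not overlap for 11 of 47 members (23.4%, against 21.9% of all genes), and the median difference was -0.022, beside -0.034 for all genes. CLK1 had that smallest p. It read 8.23, 8.43 and 8.08 after wounding against 7.78, 7.95 and 7.59 in control, so every wounded array was above every control array, and the difference was 0.47 ± 0.12 (1.39-fold). Its other 2 probe sets stood at 0.49 and 0.37. The CLK1 difference passed the threshold without replicate 2 or without replicate 3 of heat shock, which change the pooled spread and not these 2 groups (limma adjusted p = 0.038 and 0.0469), and with the mean of its probe sets (0.44, adjusted p = 0.0152), in all in 9 of 22 alternatives (adjusted p from 0.00938 to 0.0469). CLK3 read 7.59, 7.77 and 7.58 (0.29 ± 0.12, limma adjusted p = 0.302), CLK2 9.01, 9.11 and 9.12 (0.03 ± 0.06), and CLK4 6.60, 6.70 and 6.48 (0.01 ± 0.09). SRSF7, an SR protein also active in mRNA export, went from 12.38, 12.35 and 12.21 to 12.12, 12.08 and 12.05 without overlap (-0.23 ± 0.06, limma adjusted p = 0.0879), and 1 of its other probe sets was called lower at -0.44. Of the 173 probe sets of the members only that one and one of HNRNPDL (-0.35) passed after wounding (1.16% lower, beside 0.611% of all probe sets, and 0 higher, beside 1.72%).

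Heat shock followed by wounding called 15 of 47 genes against control (31.9%, beside 23.1% of all genes), most of them lower. The lower calls were 11 (23.4%, beside 14.4%): SRSF2, SRSF3, SRSF4, SRSF6, SRSF7, SRSF12, HNRNPAB, HNRNPD, HNRNPDL, HNRNPR and CLK4. The 4 higher calls (8.51%, beside 8.66%) were CLK3, SRSF11, SF3A1 and the dim HNRNPCL2. Levels did not overlap for 26 members (55.3%, against 37.4% of all genes). The median difference was -0.063, beside -0.007 for all genes. Under cyclic loess, another scaling, the calls were 6 higher and 8 lower. The lower calls of CLK4, HNRNPR and SRSF3 were lost there (limma adjusted p = 0.0555, 0.0636 and 0.0792). Among all called genes the share of higher calls went from 37.6% to 49.8% under that scaling (after heat shock alone from 38.4% to 49.3%, with the members' split still 5 higher and 6 lower).

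By family, 6 of the 12 SR genes fell (50%, beside 14.4% of all genes) and 1 rose (8.33%, beside 8.66%). SRSF2 read 10.35, 10.26 and 10.66 after both treatments, all below the control arrays, with a difference of -0.82 ± 0.11 or 0.568 of the control level (limma adjusted p = 0.000183). SRSF12 read 5.59, 5.33 and 5.60 (-0.63 ± 0.10, adjusted p = 0.000521 by limma). SRSF6 read 10.09, 10.07 and 10.40 (-0.48 ± 0.11, adjusted p = 0.00753 by limma). None of these 3 overlapped control, and the falls of SRSF2 and SRSF12 held in all 22 alternative analyses. SRSF11 read 10.09, 10.29 and 9.98 and was higher by 0.31 ± 0.08 (limma adjusted p = 0.0101). With replicates 1 and 2 averaged the calls of SRSF6 and SRSF11 were lost (limma adjusted p = 0.0701 and 0.0811). The falls of SRSF4 (-0.28), SRSF7 (-0.25) and SRSF3 (-0.19) were small. All 3 lost their call without control replicate 1 or 2 or without the replicate 2 that stood apart, in which case their values were -0.24, -0.22 and -0.15 (limma adjusted p = 0.0536, 0.0511 and 0.112). SRSF3 lost it also without control replicate 3, wounded replicate 1 or heat shock and wounded replicate 1 (adjusted p = 0.0903, 0.0502 and 0.0638).

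Among the hnRNPs, HNRNPDL read 9.45, 9.51 and 9.60 (-0.71 ± 0.08, or 0.611 of control, limma adjusted p = 3.28e-05), the smallest p of any member's level in any comparison. HNRNPAB read 11.69, 11.80 and 11.72 (-0.38 ± 0.07, adjusted p = 0.00134 by limma). HNRNPD, or AUF1, which promotes decay of AU-rich mRNA, went from 11.06, 11.09 and 11.26 in control to 10.86, 10.72 and 10.81 (-0.34 ± 0.07, limma adjusted p = 0.00345). The arrays of these 3 genes did not overlap with control, and the calls of HNRNPDL and HNRNPAB held in all 22 alternatives. With the mean of a gene's probe sets HNRNPDL stood at -0.32, and the call of HNRNPD was lost (-0.09, adjusted p = 0.422). HNRNPR, a relative of SYNCRIP, fell by 0.22 (limma adjusted p = 0.0265, 0.0967 without the replicate 2 that stood apart, 0.093 and 0.0748 without control replicate 1 or 3, and 0.225 with the mean of its probe sets). HNRNPCL2, a copy of HNRNPC, rose from 2.57, 2.51 and 2.56 to 3.08, 2.78 and 3.05, which is a change at a level where detection is not known and where probes may pick up HNRNPC.

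In the kinases and SF3 subunits the same 3 genes were called as after heat shock alone. CLK3 read 8.11, 8.21 and 7.86 (0.70 ± 0.12, 1.63-fold, limma adjusted p = 0.00102) and CLK4 read 6.30, 6.19 and 6.20 (-0.35 ± 0.09, adjusted p = 0.0182 by limma). CLK4 lost its call without control replicate 2 (-0.26, adjusted p = 0.0837), without the replicate 2 that stood apart (-0.33, 0.0539) and under cyclic loess (-0.28, 0.0555). The mean of probe sets ended the calls of CLK3 (0.26, adjusted p = 0.0577), CLK4 (-0.12, 0.277) and SF3A1 (0.10, 0.386). CLK1, at 7.80, 7.78 and 7.86, did not differ from control beyond its spread (0.04 ± 0.12, with a 95% interval from -0.23 to 0.31), and CLK2 read 9.04, 9.06 and 8.91. SF3A1 read 9.53, 9.57 and 9.52 (0.27 ± 0.08, limma adjusted p = 0.0232) but lost its call without control replicate 1 or 3 or without heat shock and wounded replicate 1 or 2 (adjusted p from 0.0529 to 0.0866), and no SF3B gene was called. Without the replicate that stood apart 9 members were called in all (19.1%, beside 18.6% of all genes, so the share was then near the background): CLK3, HNRNPAB, HNRNPCL2, HNRNPD, HNRNPDL, SRSF2, SRSF6, SRSF11 and SRSF12.

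Against wounding alone, the addition of heat shock called 10 of 47 genes (21.3%, beside 14.9% of all genes), 2 higher (beside 6.31%) and 8 lower (beside 8.6%). Levels did not overlap for 28 members (59.6%, against 32.1% of all genes), and the median difference was -0.085, beside 0.02 for all genes. SRSF2, which read 10.95, 11.11 and 11.07 in wounded cells, fell by 0.62 in those also heat shocked (limma adjusted p = 0.00274). HNRNPDL, at 10.05, 10.07 and 10.14 in wounded cells, fell by 0.57 (adjusted p = 0.000476 by limma). These calls held in all 22 alternative analyses, though HNRNPDL stood at -0.28 with the mean of its probe sets. SRSF12 (5.82, 5.88 and 6.08 in wounded cells) stood at -0.42 against wounding, HNRNPAB (12, 12.06 and 12.10) at -0.32 and HNRNPD (11.07, 11.17 and 11.05) at -0.30, all called. SRSF3, a promoter of mRNA export, read 12.10, 12.12 and 12.08 in wounded cells and 11.89, 11.80 and 11.94 after both (-0.22 ± 0.06, limma adjusted p = 0.0221). Among the kinases CLK1 was lower (-0.43 ± 0.12, adjusted p = 0.0348), CLK4 lower (-0.36 ± 0.09, 0.0229) and CLK3 higher (0.41 ± 0.12, 0.0376, all by limma). HNRNPH3, at 10.14, 10.26 and 10.06 in wounded cells and 10.36, 10.35 and 10.41 after both, was higher by 0.22 (limma adjusted p = 0.0354). The calls of the 3 kinases, HNRNPH3 and SRSF3 were each lost without 1 of 4 to 6 arrays, the one that stood apart included (adjusted p from 0.0503 to 0.128), those of HNRNPD and SRSF12 without wounded replicate 2 or 3 (0.0506 and 0.055). With the mean of probe sets CLK3, CLK4, HNRNPD and HNRNPH3 were not called (adjusted p from 0.102 to 0.307). The CLK1 call was lost under 2 other scalings, repeated quantile normalization (-0.39, limma adjusted p = 0.0505) and cyclic loess (-0.37, 0.0611). With 1 array left out, 5 to 12 members were called. Without the replicate that stood apart there were 5 (10.6%, beside 10.1% of all genes), and without wounded replicate 1 also 5 (10.6%, beside 9.09%), both near the background. Without wounded replicate 2 or heat shock and wounded replicate 1 there were 6 (12.8%, beside 10.6% and 11.6%).

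Against heat shock alone, the addition of wounding called none of the members (beside 4.3% of all genes, 2.71% higher and 1.58% lower). By limma 10 (21.3%, beside 17.4% of all genes) had an unadjusted p under 0.05, and the smallest adjusted p was 0.05, of HNRNPCL2. Levels did not overlap for 17 members (36.2%, against 19.9% of all genes). CLK1 was higher by 0.41 ± 0.12 (7.80, 7.78 and 7.86 against 7.36, 7.65 and 7.20, without overlap, limma adjusted p = 0.094). It passed in 4 of 22 alternatives (adjusted p from 0.0306 to 0.0469), among them the robust variance prior and the fit without heat shock replicate 2 (0.53, 0.0374). The interaction asks whether the change from both treatments departs from the sum of the single changes, and limma called none of the members there, beside 0.00552% of all genes, with 0 members at an unadjusted p under 0.05, beside 7.18% of all genes. The smallest adjusted p was 0.756. CLK1 had an interaction of -0.06 ± 0.17, but its 95% interval ran from -0.44 to 0.32.

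CLK1 had differences of opposite sign after the single treatments, neither of them called. A direct comparison of heat shock with wounding, whose differences use no control arrays, was added after those signs were seen. The comparison reuses the same heat shock and wounded arrays, so its CLK1 values are no independent support for the opposite signs. It called 11 of 47 genes (23.4%, beside 10.5% of all genes), 5 higher (beside 4.51%) and 6 lower (beside 6.01%) after heat shock, and levels did not overlap for 24 members (51.1%, against 28.3%). CLK1 differed most, by -0.84 ± 0.12 (0.557 of the wounded level, 95% interval -1.11 to -0.57, limma adjusted p = 0.000903). All 3 heat-shocked arrays (at most 7.65) were below all wounded arrays (at least 8.08), the 3 probe sets of CLK1 were each called lower, by 0.54 to 0.84, and the call held in all 22 alternatives. CLK4 was lower by 0.47 and CLK3 higher by 0.44 (limma adjusted p = 0.00714 and 0.0357), and CLK2 stood at -0.01. The other lower genes were SRSF2 (-0.40), HNRNPDL (-0.36), HNRNPAB (-0.25) and SRSF3 (-0.20). The other higher genes were HNRNPA3, an RNA-binding relative of HNRNPA1 (0.35), HNRNPH3 (0.30), SF3A1 (0.29) and SRSF11 (0.27). HNRNPA3 read 9.69, 9.52 and 9.42 after heat shock and 9.22, 9.23 and 9.14 after wounding. With 1 array left out 4 to 11 members were called, and the counts of 4 (8.51%, beside 6.52%, 6.55% and 8.26% of all genes) came without heat shock replicate 1, wounded replicate 1 or wounded replicate 3, of 5 without heat shock or wounded replicate 2, and of 6 without control replicate 1. The share of all genes does not stand beside the counts of 5 and 6, so those are no result about the members alone. Only CLK1, CLK4 and HNRNPH3 kept their call with any 1 array left out, and with the mean of probe sets CLK4 (-0.21, adjusted p = 0.0775) and HNRNPH3 (0.13, 0.266) lost theirs.

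Probe sets of the same gene also went separate ways. A probe set covers only a stretch of a transcript and some can pick up related transcripts, and the RNA was labelled with a kit that starts from the 3′ end. The files do not give probe positions, so which exons are read is not known. The pattern was tested with limma's diffSplice F test over the 11734 genes with more than 1 probe set, 37 of them members, a test added after the probe sets of SRSF1 were seen. Probe sets of a gene share arrays and can share probes, while the test takes them as independent, and on simulated data it called more false genes than its threshold allows. After heat shock 8 of the 37 members were called unequal (21.6%, beside 3.06% of all genes): CLK3, HNRNPC, HNRNPD, HNRNPDL, SRSF1, SRSF3, SRSF5 and SRSF10. After both treatments there were 11 (29.7%, beside 7.32%), with CLK4, HNRNPU and SF3A1 added. Wounding gave 0, beside 0.562% of all genes, with 4 members (beside 5.17% of all genes) at an unadjusted p under 0.05 by diffSplice. Both treatments against wounding gave 7 (18.9%, beside 3.84%), and heat shock against wounding 6 (16.2%, beside 2.89%).

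Members had brighter probe sets than other genes (median of the brightest 10.55, against 6.87). Among genes with 5 or more probe sets, the brightest at a level of 9 or above, 7 of 12 members (58.3%) and 11.6% of all 586 genes were called after heat shock, and 8 of 12 (66.7%) and 17.1% after both. With probe sets of mean level under 5 left out, 5 members were called after heat shock (HNRNPC, HNRNPDL, SRSF1, SRSF10 and, as an added call, SF3A1), beside 2.97% of genes. With 1 array left out the count after heat shock was 4 to 10, while 1.52% to 3.98% of all genes were called. Of the 12 such fits SRSF3 lost its call in 9, SRSF10 in 7, HNRNPD, SRSF1 and SRSF5 in 3 each and CLK3 in 1, and HNRNPC and HNRNPDL in none. It was 4 or 5 without any 1 of control replicates 1, 2 and 3 and heat shock replicates 1 and 2. After both treatments it was 7 to 11, while 4.43% to 7.76% of all genes were called. It was 7 (18.9%, beside 4.87%) without control replicate 3. SRSF5 lost its call after both treatments in 7 fits. Without the replicate that stood apart SF3A1 and SRSF1 lost theirs, leaving 9 (24.3%, beside 5.66% of all genes), and CLK4 lost its call against wounding, leaving 6 (16.2%, beside 2.57%).

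**Figure D3:**
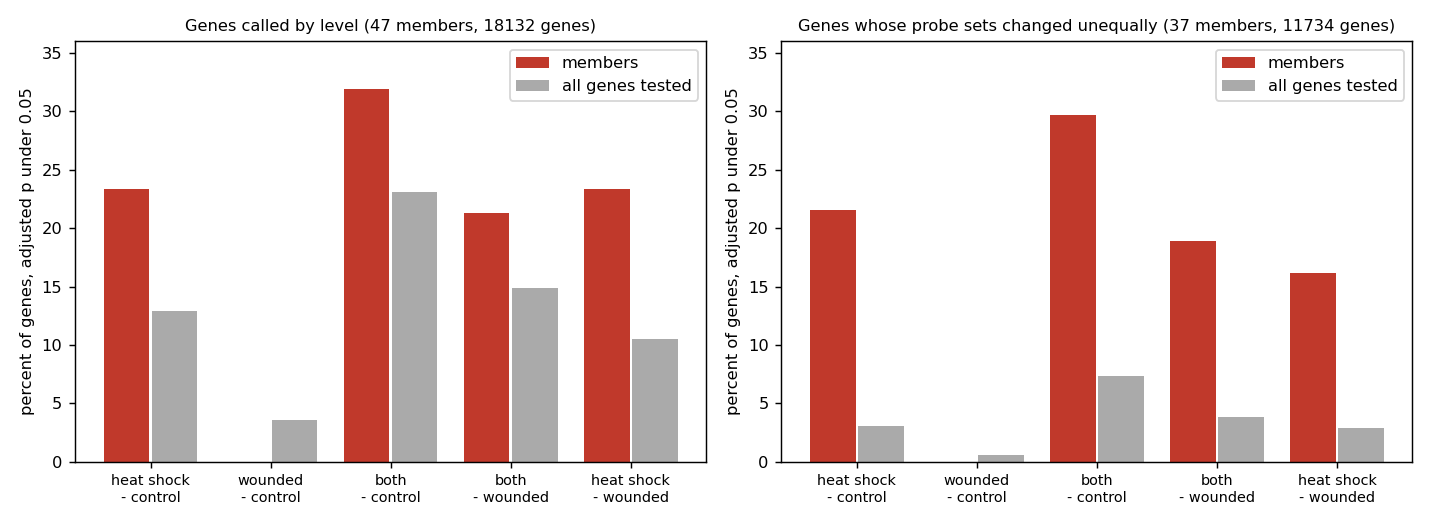
Percent of genes called by level (left) and percent whose probe sets changed unequally (right) for the members and for all genes tested, at an adjusted p under 0.05, in 5 comparisons. For level, members reach 31.9% against 23.1% after both treatments (19.1% against 18.6% without the array that stood apart), and for unequal probe sets 29.7% against 7.32%. Wounding has no member called in either panel.

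SRSF1, the founding SR protein, split into 2 sets of probe sets. Its brightest probe set read 11.98, 12.02 and 11.92 in control and 11.94, 11.96 and 11.94 after heat shock, with no difference beyond the spread (-0.03). Another 3 of its 6 probe sets rose by 0.42, 0.43 and 0.45 (limma adjusted p over probe sets 0.0284, 0.049 and 0.0206). The dimmest of these read 8.83, 8.82 and 8.55 in control, 9.31, 9.09 and 9.14 after heat shock, 8.42, 8.59 and 8.21 after wounding, and 9.08, 9.16 and 8.99 after both. Heat-shocked arrays lay above control and wounded arrays in both heat-shocked groups. In wounded cells the same 3 stood at -0.33, -0.28 and -0.33 and were not called, and between heat shock and wounding they differed by 0.74, 0.71 and 0.78, each called. The remaining 3 probe sets lay between -0.06 and 0.09 after heat shock. The F test gave adjusted p = 0.0139 after heat shock by limma and 5.02e-07 between heat shock and wounding. It was added after this split was seen, so these p-values are no independent support for it. Of the 5 left-out arrays named above, the call after heat shock was lost without heat shock replicate 1 or 2 or control replicate 3, and it remained between heat shock with wounding and wounding alone (adjusted p = 1.91e-06, limma) in each of the fits with 1 array left out.

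SRSF10 and HNRNPC showed 1 probe set rising apart from the rest. For SRSF10, the repressor of splicing in heat shock, that probe set read 7.66, 7.74 and 7.62 in control, 8.21, 8.26 and 8.05 after heat shock, 7.48, 7.58 and 7.44 after wounding, and 8.11, 8.11 and 8.07 after both. The heat-shocked groups lay wholly above the others, with differences of 0.50 ± 0.08 and 0.42 ± 0.08 from control (limma adjusted p = 0.00112 and 0.00163). Its other 6 probe sets stood between 0.03 and 0.20 after heat shock and were not called. The F test for SRSF10 was near the threshold after heat shock (limma adjusted p = 0.0347, lost in 7 of 12 fits with 1 array left out), and after both treatments it held in all of them (0.000323 with all arrays). For HNRNPC, which sorts mRNA for export and blocks cryptic exons, a probe set read 6.29, 6.36 and 6.16 in control, 6.79, 6.81 and 6.52 after heat shock, 6.16, 6.09 and 6.08 after wounding, and 6.81, 6.52 and 6.81 after both (0.43 ± 0.10 and 0.44 ± 0.10, limma adjusted p = 0.0171 and 0.0081). Its other 5 stood between -0.16 and 0.04 after heat shock.

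**Figure D4:**
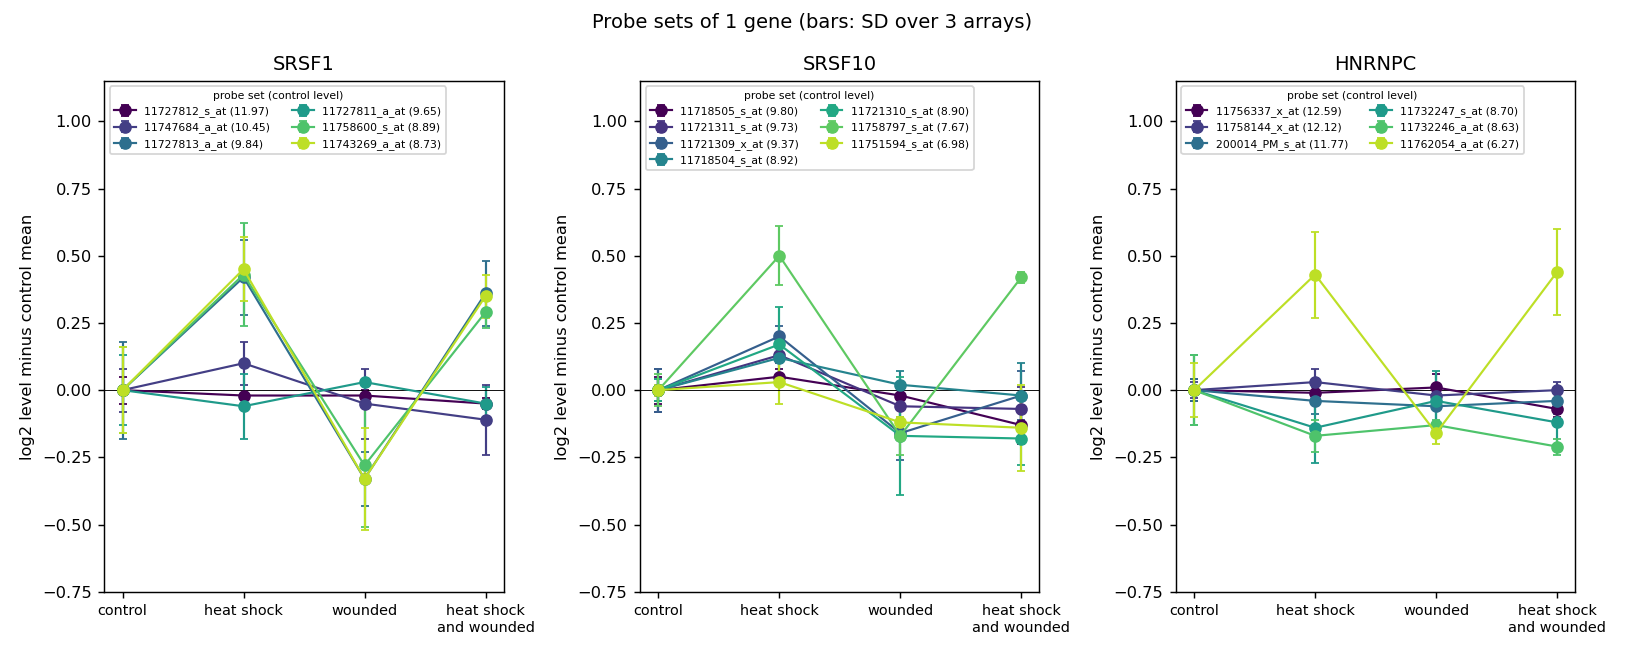
Group mean of every probe set of SRSF1, SRSF10 and HNRNPC minus its control mean (log2, lines and points, with SD over 3 arrays as bars), with the control level in the key. In each gene the probe sets that rise by 0.42 to 0.50 after heat shock lie below control after wounding and above it again after both, while the brightest probe sets stay between -0.12 and 0.05.

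Other genes split in other ways. SRSF3 fell more in 2 of its 7 probe sets, both dimmer (-0.34 and -0.38 after heat shock, both called), than in the brightest (-0.17, not called). No other probe set of SRSF3 was called, and the signs of the 7 differed. HNRNPDL fell in 3 of 5 probe sets, by 0.34 to 0.54, while another stood at 0.40 without a call. SRSF5 had 8 brighter probe sets between -0.18 and -0.07 after heat shock and 1 dim one, at a mean level of 5.30, that fell by 0.77 (limma adjusted p = 0.00198). HNRNPU, a scaffold protein of the nuclear matrix, had 2 dim probe sets that fell by 0.61 and 0.57 after both treatments (limma adjusted p = 0.00669 and 0.00887), and its brightest stood at 0.06. Those 2 were lowest on the array that stood apart (5.17 and 3.54), and HNRNPU was still called unequal without it. Probe sets called in opposite directions occurred only after both treatments, in HNRNPD (5 lower and 1 dim one higher by 0.66) and CLK4 (2 lower and 1 dim one higher by 0.49). In HNRNPA0 the second probe set stood at -0.30 between heat shock and wounding, a call, while the main one stood at 0.15. Over all 173 probe sets, 17 were called higher after heat shock (9.83%, beside 4.33% of all 44987 probe sets) and 15 lower (8.67%, beside 4.66%). After both treatments 12 were higher (6.94%, beside 7.27%) and 29 lower (16.8%, beside 11%).

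Lists of other splicing genes were set beside the members, and limma called none of their genes after wounding, beside 3.57% of all genes. There 1 SR-related gene, 1 branch point gene, 4 other regulators and 2 nuclear stress body genes had an unadjusted p under 0.05, beside 13.2% of all genes. Of 9 further kinases and phosphatases of SR proteins, PPP1CC was lower after heat shock (-0.24), and PPP1CC and the SR protein kinase SRPK1 (-0.36) were lower after both treatments. Of 22 SR-related proteins and coactivators 5 rose and 4 fell after heat shock. The largest changes were those of LUC7L (0.40), a U1-associated protein, and RSRC2 (0.38), and of BCLAF1 (-0.52) and THRAP3 (-0.39), which work as partners in mRNA processing and export. After both treatments 3 rose and 6 fell, with BCLAF1 at -0.61, LUC7L at 0.52, SRRM1 at -0.48 and THRAP3 at -0.43.

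Of 13 genes of branch point and 3′ splice site recognition, SUGP1 fell after heat shock (-0.33), and SUGP1 (-0.42), DDX42 (-0.46) and PUF60 (-0.20) fell after both. Of 10 genes of the U1 particle and Sm core, SNRPA, an RNA-binding protein of the U1 particle, was higher after heat shock (0.57) and both (0.51). Of 21 tri-snRNP genes PRPF3 (0.54 and 0.44) and SNRNP27 (0.36 and 0.29) rose in the same 2 groups, and 3 fell after both, among them PRPF31 (-0.27) and PPIH (-0.26). Of 29 other splicing regulators 4 rose and 3 fell after heat shock, led by MBNL2, a muscleblind splicing factor, at 1.25 ± 0.10 or 2.38-fold (limma adjusted p = 7.72e-06). MBNL2 was also higher by 1.01 after both, a larger change than that of any member. TIA1, a stress granule protein, was higher after heat shock by 0.44 and TARDBP by 0.27, and CELF1 stood at -0.28, also called. Of 6 genes of nuclear stress body proteins limma called none after heat shock or both, with 1 and 2 at an unadjusted p under 0.05. Of all genes 25.3% and 33.6% had such a p. Of 12 genes of nonsense-mediated decay and the exon junction complex, SMG6 (-0.37) and EIF4A3 (-0.25) were lower after heat shock, and 3 were lower after both. The share of all genes called was 12.9% after heat shock and 23.1% after both.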

How the data were processed

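RNA of 12 A549 samples was read on PrimeView arrays. The deposited table holds log2 probe set levels. Per the submitters' processing notes the authors used RMA and Affymetrix Expression Console, whose versions were not found in the labels. RMA sets all arrays to 1 distribution and compresses dim probe sets, and background correction could not be repeated. Of 49293 probe sets, 1 had a missing value and was left out, 44987 had 1 gene symbol in GEO's platform annotation, 1832 had several and 2473 were not listed. Of the first, 44960 matched RefSeq (GRCh38.p14) by identifier. HNRNPH2 had only probe sets with several symbols and is no member.

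A model with 1 mean per group was fitted in R 4.3.3 with the lmFit, contrasts.fit and eBayes steps of limma 3.58.1 (8 residual degrees of freedom), with Benjamini-Hochberg adjustment over all 18132 genes, or over 44987 probe sets for values of single probe sets and 11734 genes for diffSplice. Intervals after ± are SE for differences. Members and gene lists were chosen with earlier results of these data known. Members called are named; array values are given for up to 10 called members with the largest change in a comparison and for every CLK gene; up to 4 called genes of each other list are named. The fits were tested on simulated data. Alternatives were 3 scalings, a filter on low levels, the mean of probe sets, 2 blocks, averaging of replicates 1 and 2, array weights, a robust variance prior and leaving out each of the 12 arrays. Replicate numbers were not taken as pairs.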

Additional observations from a re-analysis of the deposited data

How the results depend on the processing

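The number of members called after heat shock (11) became 6 with the mean of a gene's probe sets and 4 with the arrays described as S2a and S2b averaged to 1 sample, rose to 15 with array weights and 16 with the trend and robust variance prior, and was 7 to 12 with 1 array left out. After wounding (0) it was 1 with cyclic loess, with the mean of probe sets, with the replicate block and with the description set block, 2 with genes of low level left out and with the trend and robust variance prior, 3 with array weights, and 0 to 1 with 1 array left out. After both treatments (15) averaging gave 7, the robust prior 19 and leaving out 1 array 9 to 17. For both against wounding (10) averaging gave 2, array weights 14, the low level filter 15, the robust prior 16 and leaving out 1 array 5 to 12. For both against heat shock (0) it was 1 with the mean of probe sets, the description set block and array weights, 2 with the replicate block, 3 with the robust prior, and 0 to 1 with 1 array left out. For heat shock against wounding (11) averaging gave 2, array weights 15, the robust prior 16 and leaving out 1 array 4 to 11. The interaction gave 0 members in every alternative. Each setting was applied to all genes. The share of all genes called under it does not stand beside these counts, so they are no result about the members alone. Members with unequal probe sets after heat shock (8) became 5 with dim probe sets left out and 4 to 10 with 1 array left out, and 7 to 11 (from 11) after both. The cause of these differences was not tested, beyond fewer samples in the averaged and left-out fits. With the replicate block the other counts were 12 after heat shock, 15 after both, 12 for both against wounding and 11 for heat shock against wounding, and the block called CLK1 after heat shock (adjusted p = 0.0248), after wounding (0.0201) and for both against heat shock (0.0341). Deviations from the group means correlated at -0.187 to 0.234 between samples with the same number (over 0.1 in 6 of 18 pairs). Between samples with different numbers they correlated at -0.194 to 0.243. These values do not settle whether the numbers pair the samples. The numbers were not taken as pairs in the main fit, and the block stands as an alternative. Signs changed only in CLK values near 0 among the results followed: CLK2 after heat shock (0.00 to 0.05 with 1 array left out), wounding (-0.01 with array weights), both (0.02 with cyclic loess and with the mean of probe sets) and between heat shock and wounding (0.00 to 0.01), CLK4 after wounding (-0.03 to -0.04), CLK1 after both (-0.05 to 0.13) and CLK3 for both against heat shock (-0.15 to 0.08 with 1 array left out, 0.00 with repeated quantile normalization, 0.01 with cyclic loess). With 3 arrays a group and no detection p, small changes and dim probe sets are the least certain.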
